A study of Mus musculus with 8 samples.

Results

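The cytosolic ribosome translates nuclear-encoded messenger RNA, and each of its subunits is built from ribosomal RNA and a set of ribosomal proteins, named Rpl for the large subunit and Rps for the small subunit. Their messenger RNAs are among the most abundant of a lymphocyte, and many begin with a run of pyrimidines at the cap that places their translation under control of the kinase mTOR. T cells that are activated through the T cell receptor enlarge and make more ribosomes before they divide. Several mammalian ribosomal proteins also have paralogs, encoded by separate genes with a narrower pattern of expression.

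The genes described here are the mouse genes whose symbols follow the Rpl and Rps naming of cytosolic ribosomal proteins. Of 83 such genes with a probe on the array, 1 annotated pseudogene (Rps4l) was left out, which gave 82 genes, 52 of the large and 30 of the small subunit. The filter on dim probes kept 81 of them among 15138 named genes tested. Rpl10l, a testis-expressed relative of Rpl10, was not tested, since its probes were well above background on 0 and 1 of 8 arrays. The rule used names only and no measured value.

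RNA came from splenic T cells of C57BL/6 mice aged 8 to 12 weeks. Lsp1 KO mice, Lsp1-deficient and backcrossed for 10 generations, were compared with Lsp1+/+ (WT) mice matched for age and sex. Lsp1 encodes an actin-binding protein of leukocytes. The 4 groups were KO cells given anti-CD3/CD28 antibodies, which engage the T cell receptor and a costimulatory receptor, for 6 h, WT cells given the same, KO cells in medium, and WT cells in medium, with 2 single-colour arrays each. The sources used here give neither the time the cells in medium were kept, nor the method of T cell isolation, nor the deleted part of Lsp1. Nothing in the labels ties the arrays of a group to different mice, so the spread behind the p-values may be technical.

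Values are log2 of the background-subtracted spot intensity relative to the 75th percentile of the same array, so 0 is that percentile and a difference of 1 is a doubling. Each gene is represented by its brightest probe, and no probe's level is set against that of another probe. Differences were tested with limma over all 15138 genes, errors given as ± are standard errors of that fit, and a gene was called at a Benjamini-Hochberg adjusted p below 0.05. An exact permutation test of 2 arrays against 2 cannot go below p = 0.333. In RNA from a mixture, fewer cells of a type and less RNA per cell cannot be told apart.

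The labels were checked on Lsp1 and on cell type markers. Lsp1 was lower in KO than in WT cells, by -3.79 ± 0.13 in medium (limma, adjusted p = 0.00127) and -3.35 ± 0.13 after stimulation (limma, adjusted p = 0.00268). All 15 T cell markers, Cd3e, Cd4 and Cd8a included, were well above background on all 8 arrays. The KO replicate 2 arrays stood apart. Their median neutrophil marker was at 3.75 after stimulation and 4.53 in medium, against -0.40 to 0.59 on the 6 other arrays. Of 15 listed neutrophil markers, 13 were tested and 10 were well above background on all 8 arrays. Their summed signal was 153 to 456 times the array's 75th percentile in stimulated KO cells, 144 to 147 in stimulated WT cells, 192 to 794 in KO cells in medium, and 172 to 257 in WT cells in medium. Medians of monocyte, erythroid and cell cycle markers were also highest on these arrays. All 15 B cell markers had lower means in KO than in WT cells, with median differences of -0.61 in medium and after stimulation. Of 11 natural killer cell markers, 9 were lower in KO than in WT cells in medium and 10 after stimulation, with median differences of -0.49 and -0.37. The part of these cells in the results below was not tested. Some results that use the KO replicate 2 arrays are given below with and without them. Values of the other gene lists are given only with them.

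Transcript starts are shown for the paralogs that the results turn on, for the ribosomal proteins they resemble where RefSeq gives a start, and for 3 ribosomal protein genes with the pyrimidine run at the annotated start, because the run is the feature by which these messenger RNAs are known. Each window holds 10 bases before and 20 bases from the annotated first base of the transcript, on the transcribed strand of GRCm38.p6 in the direction of transcription. Capitals mark every C followed by 4 or more C or T.
Rpl7l1 (chr17:46782637-46782666, minus strand): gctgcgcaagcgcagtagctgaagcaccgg
Rps27l (chr9:66946076-66946105, plus strand): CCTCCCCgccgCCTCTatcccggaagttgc
Rps27l, its other start (chr9:66946403-66946432, plus strand): gggcttcagggtcactaacgggcctcgcag
Rps27 (chr3:90213629-90213658, minus strand): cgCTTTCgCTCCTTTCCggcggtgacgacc
Rpl39l (chr16:10170218-10170247, plus strand): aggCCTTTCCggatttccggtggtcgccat
Rpl39 (chrX:37085203-37085232, minus strand): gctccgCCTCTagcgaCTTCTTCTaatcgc
Rpl22l1 (chr3:28805498-28805527, plus strand): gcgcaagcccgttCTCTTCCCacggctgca
Rpl22 (chr4:152325716-152325745, plus strand): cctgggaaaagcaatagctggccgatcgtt
Rpl22, its other start (chr4:152324426-152324455, plus strand): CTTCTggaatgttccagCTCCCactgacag
Rpl36al (chr12:69184048-69184077, minus strand): ccgtcgctcaggttcagttccgaCTTCCgc
Rpl36a (chrX:134585644-134585673, plus strand): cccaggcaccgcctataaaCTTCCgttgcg
Rps6 (chr4:86857348-86857377, minus strand): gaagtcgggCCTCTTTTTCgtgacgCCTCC
Rpl38 (chr11:114668570-114668599, plus strand): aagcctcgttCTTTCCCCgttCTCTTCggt
Rps10 (chr17:27635225-27635254, minus strand): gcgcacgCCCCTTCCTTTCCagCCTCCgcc
Of the 81 genes tested, 61 had a start in the RefSeq table, and Rpl7 and Rpl3 did not. Rps27l and Rpl22 have 2 annotated starts each, and a gene counts as having the run if any of its starts has it. A C at the annotated first base followed by 4 or more C or T was found in 13 of the 61 genes (21.3%), against 3.01% of 27025 genes with an entry. Anywhere in the 30 bases, the run was found in 67.2% of the ribosomal protein genes and 39.6% of all genes. The Rpl7l1 window holds none. An annotated start can lie some bases away from the start used in T cells, so a window without the run says only that these letters are not in it.

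The ribosomal protein transcripts differed little between the 4 groups. The median over the 81 genes lay between 8.18 and 8.42 on all 8 arrays, with 8.18 and 8.20 in stimulated KO cells, 8.35 and 8.30 in stimulated WT cells, 8.42 and 8.25 in KO cells in medium, and 8.30 and 8.33 in WT cells in medium. The stimulated KO arrays were the lowest, and the KO arrays in medium were the farthest apart, enclosing both WT arrays in medium. As a root mean square over these genes, the SD of replicate arrays was 0.085 for stimulated KO cells, 0.089 for stimulated WT cells, 0.144 for KO cells in medium and 0.122 for WT cells in medium. Without the 6 paralogs it was 0.044 for stimulated KO cells, 0.029 for stimulated WT cells, 0.140 for KO cells in medium and 0.057 for WT cells in medium. Over all genes it lay between 0.250 and 0.454.

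**Figure D1:**
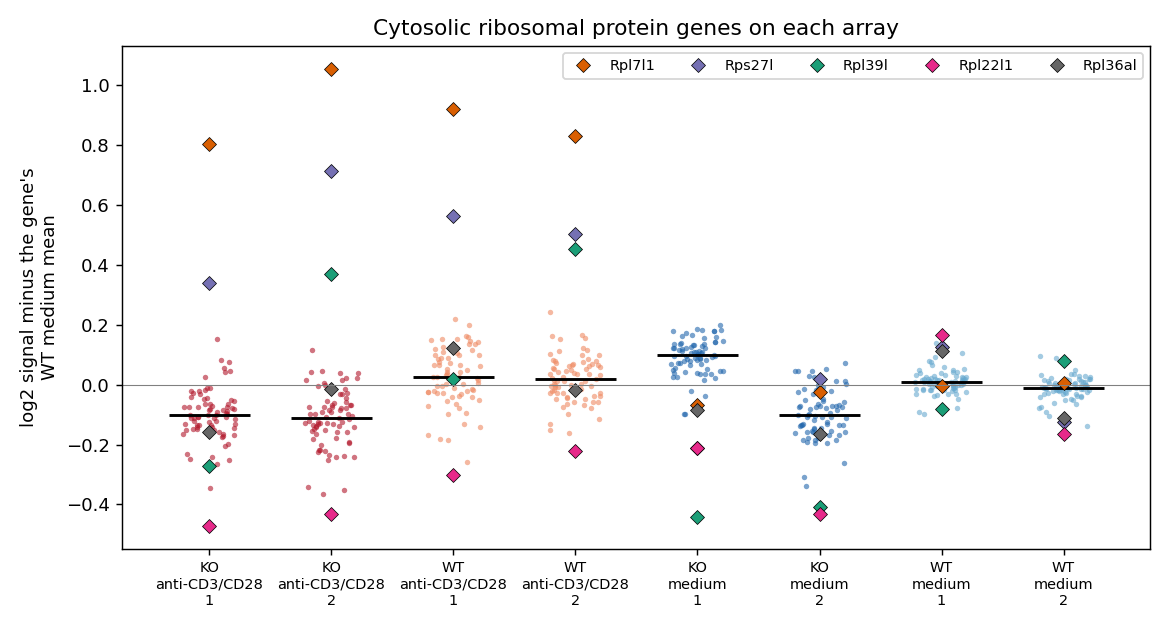
Each point is 1 ribosomal protein gene on 1 array, as its log2 signal minus the gene's mean in WT cells in medium, for the 8 arrays from stimulated KO cells at the left to WT cells in medium at the right. Black bars are array medians, diamonds are paralogs, and Rpl3l is not drawn; most genes lie within 0.2 of 0, while Rpl7l1 stands 0.80 to 1.06 above it on the stimulated arrays.

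In KO cells, stimulation raised 1 of the 81 transcripts and lowered none at an adjusted p below 0.05, where 8.13% of all genes tested were called (5.85% higher, 2.27% lower). In WT cells it likewise raised 1 and lowered none, where 10.3% of all genes were called (6.42% higher, 3.84% lower). The gene was Rpl7l1 in both. The median difference over the ribosomal protein genes was -0.099 in KO cells, against -0.078 over all genes. It was -0.011 with quantile normalization (-0.071 over all genes), -0.0088 without KO medium replicate 1 and -0.196 without KO medium replicate 2. In WT cells it was 0.035, against -0.090 over all genes, and -0.017 with quantile normalization (-0.0505 over all genes). At an unadjusted p below 0.05 there were 3 of the 81 genes in KO cells (Rpl7l1, Rps27l and Rpl3l) and 2 in WT cells (Rpl7l1 and Rps27l). Of all 15138 genes, 3844 in KO cells and 4470 in WT cells were below it. Rpl3l passed the filter only through KO cells in medium, where it was high.

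The fit gives intervals for the change in signal relative to the array's 75th percentile. They rest on a spread that may be technical and do not bound the change in transcript level. The 95% confidence interval of the stimulated minus medium difference lay wholly within 0.5 of 0 for 76 of the 81 genes in KO cells and for 75 in WT cells. Over all genes, intervals were that narrow and near 0 for 3615 in KO cells and 3426 in WT cells, of 15138. The median width of the interval to either side was 0.28 for the ribosomal protein genes.

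Both subunits showed like values. The 51 large subunit genes had a median difference of -0.104 in KO and 0.031 in WT cells. The 30 small subunit genes had medians of -0.091 in KO and 0.044 in WT cells. The single call in each genotype fell in the large subunit.

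Rpl7l1, a paralog of the large subunit protein Rpl7, encodes a protein that in human cells is found on precursors of the large subunit in the nucleolus. Its signal was 0.33 and 0.58 in stimulated KO cells, against -0.55 and -0.50 in KO cells in medium. In WT cells it was 0.44 and 0.35 after stimulation, against -0.48 and -0.47 in medium. All 4 stimulated arrays lay above all 4 arrays in medium, the genotypes overlapped after stimulation, and in medium the KO arrays lay just below the WT arrays. The difference was 0.98 ± 0.12 in KO cells (1.97-fold, limma, adjusted p = 0.00960) and 0.88 ± 0.12 in WT cells (1.84-fold, limma, adjusted p = 0.0132). The responses of the genotypes differed by 0.10 ± 0.17, with a 95% interval of -0.33 to 0.53 (limma, adjusted p = 0.9999). Without both KO replicate 2 arrays the KO difference was 0.87 with an adjusted p of 0.0649 (limma), and without KO medium replicate 2 alone the adjusted p was 0.0548. Leaving out any single WT array gave differences of 0.83 to 0.92 in WT cells and adjusted p-values of 0.0561 to 0.117.

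Rpl7 itself, a protein of the mature large subunit, did not share this pattern. It had 8.17 and 8.20 in stimulated KO cells, against 8.42 and 8.22 in KO cells in medium, and 8.35 and 8.26 in stimulated WT cells, against 8.23 and 8.42 in WT cells in medium. The WT groups overlapped. The Rpl7 differences were -0.13 ± 0.13 in KO cells and -0.015 ± 0.127 in WT cells, and neither passed the test.

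The Rpl7l1 promoter is shown because Rpl7l1 was the called gene. The 250 bases below run from 230 bases before the annotated start to 20 bases into the transcript, at chr17:46782637-46782886 on the minus strand of GRCm38.p6, from RefSeq. Capitals mark CCGGAA, the core of sites for ETS factors, and GGGCGG, the GC box, here on the opposite strand.
Rpl7l1 promoter: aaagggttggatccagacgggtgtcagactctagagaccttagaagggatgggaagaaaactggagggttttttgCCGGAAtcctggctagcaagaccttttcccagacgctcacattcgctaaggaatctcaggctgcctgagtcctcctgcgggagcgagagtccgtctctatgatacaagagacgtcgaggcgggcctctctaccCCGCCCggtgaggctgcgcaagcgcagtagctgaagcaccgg
Searched on both strands of the same 250-base window, CCGGAA was found in 52.5% of the 61 ribosomal protein genes with an entry and in 14.8% of all 27025 genes. GGGCGG was found in 59.0% and 36.2%. CACGTG, the E box bound by Myc, was found in 9.84% and 7.17%, and is absent from the Rpl7l1 window. TATAAA was found in 8.20% and 13.8%, and AAGATGG, the core of the YY1 site, in 8.20% and 5.5%. None of these motifs contains another. These are matches of letters and not measured sites.

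Rps27l is a paralog of the small subunit protein Rps27 and a known target of p53. Its signal was 5.28 and 5.65 in stimulated KO cells, against 4.73 and 4.96 in KO cells in medium. In WT cells it was 5.51 and 5.44 after stimulation, against 5.07 and 4.82 in medium. Every stimulated array exceeded every array in medium. The differences, 0.62 ± 0.17 in KO cells (limma, adjusted p = 0.0883) and 0.53 ± 0.17 in WT cells (limma, adjusted p = 0.106), did not pass the test in the fit of all groups. With a replicate block within genotype both passed (limma, adjusted p = 0.0272 in KO and 0.0336 in WT cells). That block called 2776 of all 15138 genes in KO and 3521 in WT cells, against 1230 and 1553 in the fit of all groups. With single arrays left out, the Rps27l difference ran from 0.44 to 0.81 in KO and from 0.41 to 0.66 in WT cells. Rps27, its mature small subunit counterpart, differed by -0.028 ± 0.114 in KO cells and 0.16 ± 0.11 in WT cells. Between Rps27l and Rps27 the stimulated minus medium differences were apart by 0.65 in KO cells and 0.38 in WT cells. In each genotype the array values of this contrast did not overlap between stimulated cells and cells in medium. That was not particular to this pair. Rpl7l1, Rpl22l1 and Rpl36al, each set against its counterpart, showed no overlap in either genotype, and Rpl39l none in KO cells.

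Rpl39l is a paralog of Rpl39 that is mainly expressed in the testis. Its signal was low, at -3.09 and -2.45 in stimulated KO cells, -2.80 and -2.37 in stimulated WT cells, -3.26 and -3.23 in KO cells in medium, and -2.90 and -2.74 in WT cells in medium. The stimulated KO arrays lay above the KO arrays in medium, while the WT groups overlapped. Neither the KO difference of 0.48 ± 0.25 nor the WT difference of 0.24 ± 0.25 passed the test (limma, adjusted p = 0.288 and 0.563). Without both KO replicate 2 arrays the KO difference was 0.17. It was 0.80 without stimulated KO replicate 1 and 0.15 without stimulated KO replicate 2, and the WT difference was 0.45 without stimulated WT replicate 1, 0.018 without stimulated WT replicate 2 and 0.16 without WT medium replicate 1. Rpl39, which lines the peptide exit tunnel, differed by -0.087 ± 0.120 in KO cells and -0.012 ± 0.120 in WT cells.

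Rpl22 is needed for the development of T cells with the alpha-beta receptor in mice, and Rpl22l1 is the paralog that can take its place on the ribosome. Rpl22l1 had 6.46 and 6.49 in stimulated KO cells, 6.63 and 6.70 in stimulated WT cells, 6.72 and 6.49 in KO cells in medium, and 7.09 and 6.76 in WT cells in medium. Its values after stimulation lay below those in medium in WT cells, and overlapped them in KO cells. The differences were -0.13 ± 0.15 in KO cells and -0.26 ± 0.15 in WT cells (limma, adjusted p = 0.638 and 0.297). The KO difference was -0.019 without KO medium replicate 1 and -0.24 without KO medium replicate 2, and the WT difference was -0.096 without WT medium replicate 1 and -0.43 without WT medium replicate 2. Rpl22 differed by 0.0031 ± 0.143 in KO cells and -0.12 ± 0.14 in WT cells. KO minus WT in medium was -0.32 ± 0.15 for Rpl22l1 and -0.22 ± 0.14 for Rpl22, and neither passed the test (limma, adjusted p = 0.736 for each).

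Rpl36al is an autosomal, intron-poor relative of the X-linked Rpl36a. It differed on stimulation by 0.039 ± 0.131 in KO cells and 0.051 ± 0.131 in WT cells, and leaving out single arrays turned the sign of both. Rpl36a differed by -0.15 ± 0.13 in KO cells and -0.21 ± 0.13 in WT cells. Neither gene passed the test in any contrast. Rpl3l, the striated muscle paralog of Rpl3, was well above background only on the 2 KO arrays in medium, at -5.86 and -5.31. It passed the filter through that group alone, so comparisons with that group are a description and give no support for a change. Rpl3l was at least 1.14-fold lower after stimulation in KO cells (limma, adjusted p = 0.0796). KO cells in medium were at least 1.85-fold above WT cells in medium (limma, adjusted p = 0.736). These bounds take each dim array at the higher of its own signal and the lowest signal well above background.

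**Figure D2:**
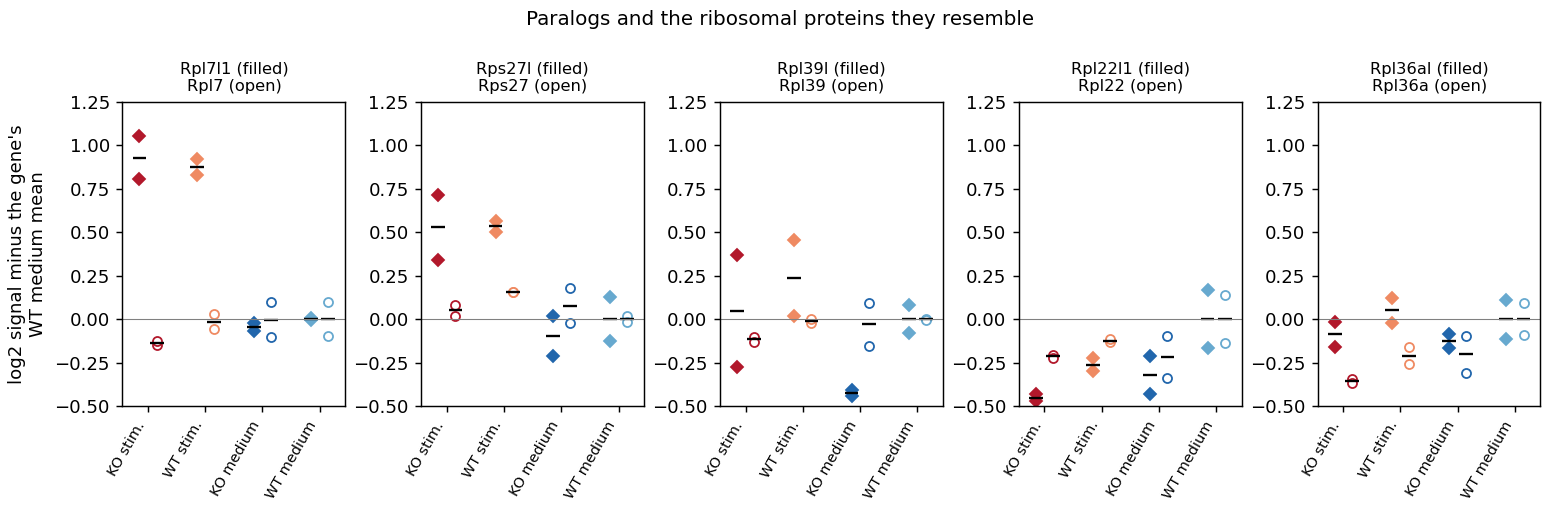
For 5 pairs, the paralog (filled diamonds) and the ribosomal protein it resembles (open circles) are plotted on each array as log2 signal minus the gene's own mean in WT cells in medium, with black bars for group means. Groups run from stimulated KO through stimulated WT and KO medium to WT medium; the stimulated arrays stand above the arrays in medium for Rpl7l1 and Rps27l but not for Rpl7, while those of Rps27 stay within 0.2 of 0.

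The 75 genes that are not paralogs held no call in either genotype. Their stimulated minus medium differences ran from -0.22 to 0.073 in KO cells, with a median of -0.104, and from -0.21 to 0.23 in WT cells, with a median of 0.030.

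The acidic stalk proteins recruit elongation factors to the large subunit. Their anchor Rplp0 differed by -0.057 ± 0.120 in KO cells and 0.043 ± 0.120 in WT cells. Rplp1 differed by -0.15 ± 0.11 in KO cells and -0.057 ± 0.114 in WT cells. Rplp2 differed by -0.094 ± 0.131 in KO cells and 0.097 ± 0.131 in WT cells. All 3 stalk genes stayed within the range of the other genes.

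Rpl5 and Rpl11 form a particle with ribosomal RNA that binds Mdm2 and restrains its action on p53 when ribosome assembly fails. Rpl5 had 7.64 and 7.54 in stimulated KO cells, 7.86 and 7.81 in stimulated WT cells, 7.79 and 7.69 in KO cells in medium, and 7.81 and 7.73 in WT cells in medium. The stimulated KO arrays of Rpl5 were below the other 6. Its stimulated minus medium difference was -0.15 ± 0.11 in KO cells and 0.068 ± 0.107 in WT cells. Rpl11 differed by -0.078 ± 0.121 in KO cells and -0.038 ± 0.121 in WT cells.

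Rps6, whose protein is phosphorylated by the S6 kinases below mTOR, had 8.32 and 8.31 in stimulated KO cells, against 8.46 and 8.33 in KO cells in medium, and 8.46 and 8.44 in stimulated WT cells, against 8.33 and 8.35 in WT cells in medium. Its stimulated arrays thus lay below medium in KO and above medium in WT cells. The differences were -0.082 ± 0.104 in KO cells and 0.11 ± 0.10 in WT cells. The gap between these responses was -0.19 ± 0.15 (95% interval -0.55 to 0.17, limma, adjusted p = 0.9999).

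Further small subunit genes named for their roles had values near 0 on their brightest probes. Rps19, mutated in Diamond-Blackfan anaemia in humans, differed by -0.14 ± 0.11 in KO cells and -0.037 ± 0.111 in WT cells. Rpsa, also known as a laminin receptor, differed by -0.16 ± 0.10 in KO and -0.014 ± 0.104 in WT cells. Rps27a is made as a fusion with ubiquitin, and it differed by -0.024 ± 0.117 in KO and 0.038 ± 0.117 in WT cells. Its other probes gave larger values. A probe with a mean of 7.80 differed by -0.055 in KO and 0.35 in WT cells. A dim probe with a mean of -4.54 differed by 0.83 in KO and 0.49 in WT cells. Rps4x is X-linked, and it differed by -0.14 ± 0.11 in KO and -0.013 ± 0.111 in WT cells. None of these passed the test.

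In the large subunit, Rpl3 lies near the catalytic centre and differed by -0.18 ± 0.11 in KO and -0.024 ± 0.111 in WT cells. Rpl10 joins the subunit late in its assembly, and it differed by -0.075 ± 0.111 in KO and 0.13 ± 0.11 in WT cells. Rpl38, needed for translation of some Hox messenger RNAs in mouse embryos, differed by 0.013 ± 0.098 in KO and 0.14 ± 0.10 in WT cells. Rpl13a, part of a complex that silences inflammatory transcripts in human monocytic cells, differed by -0.082 ± 0.105 in KO and 0.14 ± 0.10 in WT cells. Again none passed.

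Rpl3l was not well above background in 3 of the 4 groups, so its range over the group means is not ranked. Among the other genes this range was largest for Rpl7l1 (0.98), Rpl39l (0.66) and Rps27l (0.63), each of them a paralog. It was smallest for Rps15 (0.060), Rps12 (0.090) and Rpl18 (0.095), structural proteins of the mature subunits. Rps15 was picked for its small range, and its replicates in medium lay farther apart than its group means. It had 7.49 and 7.49 in stimulated KO cells, 7.5 and 7.51 in stimulated WT cells, 7.65 and 7.34 in KO cells in medium, and 7.37 and 7.52 in WT cells in medium.

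**Figure D3:**
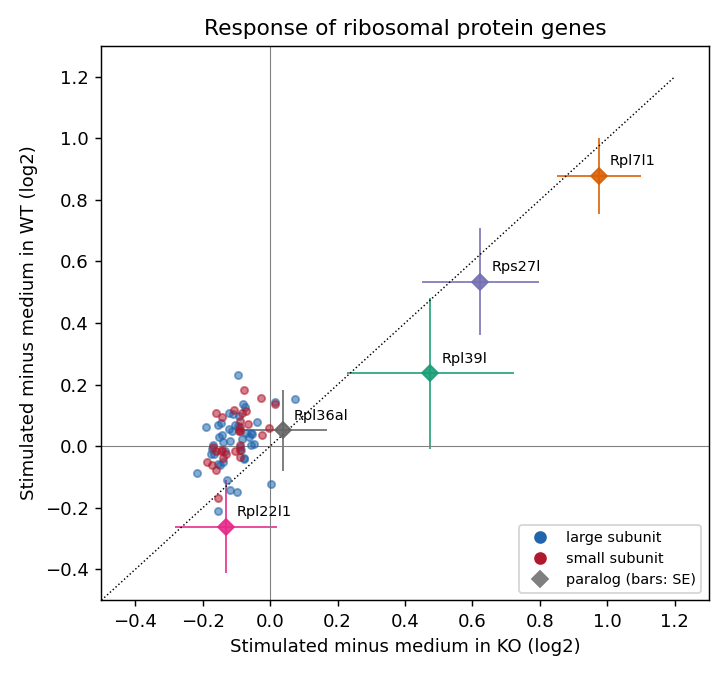
Each point is 1 ribosomal protein gene, with its stimulated minus medium difference in KO cells on the horizontal axis and in WT cells on the vertical axis, both in log2 units. Diamonds with standard error bars are paralogs, the dotted line marks equal differences, and Rpl3l is not drawn; most genes form a cloud left of the line, where the median difference between the responses was -0.129 (0.011 with quantile normalization), and Rpl7l1 lies at 0.98 and 0.88.

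Across the 81 genes the differences in KO and WT cells, which share no array, had a Pearson r of 0.42 and a Spearman rho of 0.46, as a description, since the genes share libraries. Most points sat at a lower value in KO than in WT cells. The difference was above 0 for 8 of the 81 genes in KO cells and for 50 in WT cells. Of all 15138 genes, it was above 0 for 6235 in KO and 6219 in WT cells. With quantile normalization the counts among the 81 genes were 38 in KO and 33 in WT cells. Without KO medium replicate 1 the KO count was 36, and without KO medium replicate 2 it was 4. Stimulated KO arrays lay wholly below the KO arrays in medium for 34 genes and wholly above for 3, where 28.6% and 22.8% of all genes did so. In WT cells, of 78 genes measured on all 4 arrays, 37 lay wholly above and 18 wholly below, where 27.4% and 42.1% of all genes did so. In 14 of the 78 genes stimulated arrays lay wholly below medium in KO and wholly above medium in WT cells, where 1.07% of all genes did so. The share among genes of like brightness was not computed.

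The difference between the responses, KO minus WT, had a median of -0.129 over the ribosomal protein genes and 0.025 over all genes. None of the 81 genes was called for it by limma, where 0.00661% of all genes were. An unadjusted p below 0.05 was found for 1 of them (Rpl3l, filtered in through KO cells in medium) and for 459 of all 15138 genes. With quantile normalization the median was 0.011, and without both KO replicate 2 arrays it was -0.208. Leaving out KO medium replicate 1 gave -0.026, and leaving out KO medium replicate 2 gave -0.218.

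In medium, KO and WT cells had similar values for these transcripts. KO minus WT had a median of -0.001, with 40 genes above 0 and 41 below, against a median of -0.059 over all genes. Of all 15138 genes, 6017 were above 0 and 9121 below. No ribosomal protein gene was called by limma, where 0.00661% of all genes were. An unadjusted p below 0.05 was found for 1 (Rpl3l, filtered in through KO cells in medium) and for 865 of all 15138 genes. The intervals of 75 genes lay within 0.5 of 0, as did those of 5342 of all genes. KO arrays lay wholly above WT arrays for 8 of 78 genes and wholly below for 5, where 12.8% and 21.4% of all genes did so. The 2 KO arrays differed from each other more than the genotypes did. Replicate 2 was the lower for 76 of the 81 genes, with a median gap of -0.194, and the median was 0.097 without it and -0.102 without replicate 1.

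After stimulation, KO cells had lower values than WT cells for 79 of the 81 genes, and for 8942 of all 15138 genes. The 81 genes share arrays, so their signs are not independent. The median over the 81 genes was -0.124, against -0.042 over all genes. KO arrays lay wholly below WT arrays for 71 genes and wholly above for 0, where 24.8% and 13.2% of all genes did so. None was called by limma, where 0.0198% of all genes were. None had an unadjusted p below 0.05, where 762 of all 15138 genes did. The intervals of 74 genes lay within 0.5 of 0, as did those of 5924 of all genes. Rpl7l1 and Rps21 were the 2 genes with values above 0, at 0.053 and 0.037, of which Rps21 was picked after its value was seen.

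This downward displacement was present with median centring and with other signal values, and absent with quantile normalization. It was -0.134 with arrays centred on the median of all genes, -0.123 with normexp background correction and -0.125 from the deposited median intensities. It was -0.120 without both KO replicate 2 arrays and between -0.129 and -0.117 when any single array was left out. With quantile normalization, which gives every array the same distribution of signals, it was -0.0037, with 35 genes above 0. Ribosomal protein genes lie near the top of that distribution. Whether the absence under this scaling comes from that position was not tested. Other bright genes had like values. Among the 119 genes that are not ribosomal proteins and whose mean was 7 or more, the median of KO minus WT after stimulation was -0.10, and the median difference between the responses was -0.113. Among the 7123 other genes with a mean below 0, these medians were 0.015 and 0.046.

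The probes of these genes were near the top of the scanner's range. The median ribosomal protein probe read between 50.3% and 59.7% of the saturation value on the 8 arrays, and the brightest read between 85.9% and 98.7%. No spot of the brightest probe of any of these genes was saturated. Between 71 and 74 of the 81 brightest probes read above 25% of the saturation value on an array. The part of this brightness in the size of the differences was not tested, and the dimmer probes of the same genes give further values.

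Besides the brightest probe of each gene, 83 other probes of ribosomal protein genes passed the filter, 164 in all of 167. Over these 83 the median difference was -0.104 in KO cells and -0.0046 in WT cells. Without the paralogs, the 127 probes with a mean of 7 or more had medians of -0.104 in KO and 0.023 in WT cells. The 13 probes between 4 and 7 had -0.130 and -0.064, the 10 probes between 0 and 4 had -0.090 and -0.102, and the 8 probes below 0 had 0.095 and 0.048. Ribosomal protein genes have many near-identical processed pseudogenes, so a probe's signal may include other transcripts.

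**Figure D4:**
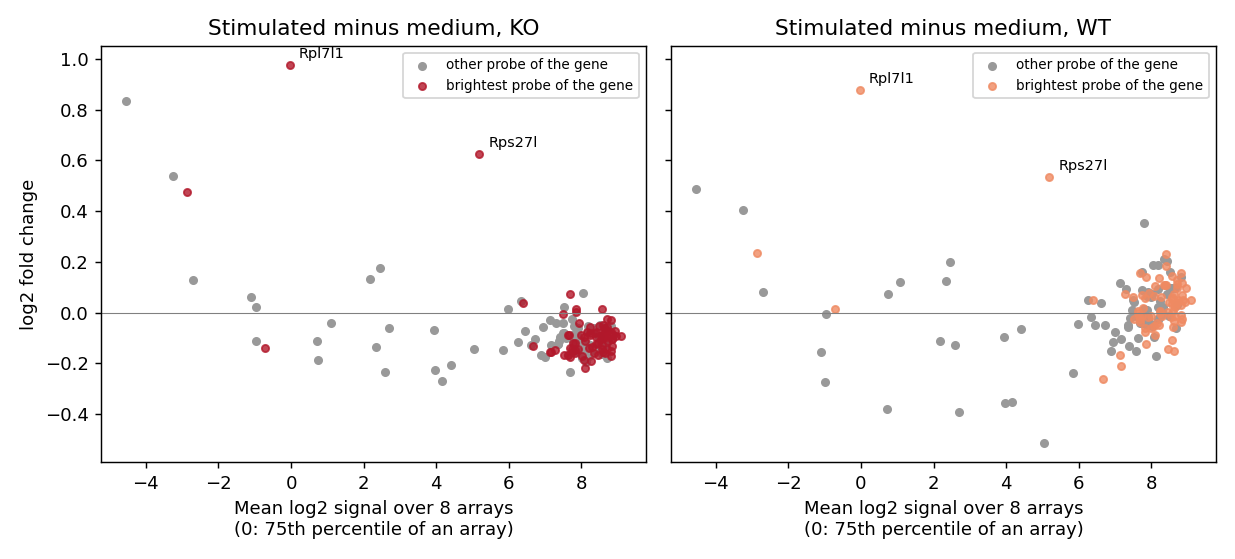
Each point is 1 probe of a ribosomal protein gene, with its mean log2 signal over the 8 arrays on the horizontal axis (0 is an array's 75th percentile) and its stimulated minus medium difference on the vertical axis, for KO cells at the left and WT cells at the right. Coloured points are the brightest probe of a gene and grey points its other probes, without Rpl3l; the crowd at 7 and above lies near 0, and Rpl7l1 lies at 0.98 in KO and 0.88 in WT cells.

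Genes of ribosome manufacture rose in the same cells. The lists that follow were chosen with earlier results of these data known. Of 39 genes of ribosome biogenesis and RNA polymerase I, 28 rose in KO cells and 27 in WT cells, where 5.85% and 6.42% of all genes did, and none fell. Their median differences were 1.03 in KO and 0.85 in WT cells, against -0.078 and -0.090 over all genes. Bysl, which acts in the maturation of the small subunit, had 3.45 and 3.97 in stimulated KO cells, against 1.74 and 1.79 in KO cells in medium, and 3.58 and 3.61 in stimulated WT cells, against 1.43 and 1.81 in WT cells in medium. It rose by 1.94 ± 0.21 in KO cells and 1.98 ± 0.21 in WT cells (limma, adjusted p = 0.00611 and 0.00587). Grwd1, a chaperone of the ribosomal protein Rpl3 in yeast, rose by 1.98 ± 0.18 in KO and 1.74 ± 0.18 in WT cells. Polr1b, a large subunit of RNA polymerase I, rose by 1.86 ± 0.17 in KO and 1.83 ± 0.17 in WT cells, and the nucleolar chaperone gene Nolc1 by 1.93 ± 0.17 in KO and 1.72 ± 0.17 in WT cells.

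Of 77 mitochondrial ribosomal proteins tested, which build the separate ribosome of mitochondria, 7 rose in KO and 8 in WT cells, and none fell, where 5.85% of all genes rose in KO and 6.42% in WT cells. Their median differences were 0.149 in KO and 0.157 in WT cells. Mrpl15 rose by 0.94 ± 0.13 in KO and 0.76 ± 0.13 in WT cells (limma, adjusted p = 0.0123 and 0.0225), and Mrpl12 by 0.87 ± 0.16 in KO and 0.80 ± 0.16 in WT cells (limma, adjusted p = 0.0269 and 0.0330). Mrps28, of the small mitochondrial subunit, rose by 0.85 ± 0.16 in KO and 0.80 ± 0.16 in WT cells (limma, adjusted p = 0.0275 and 0.0310).

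Other transcripts known for the pyrimidine start also had values near 0. Of 16 elongation factors and other such genes, 0 were called in either genotype by limma, where 8.13% of all genes were in KO and 10.3% in WT cells. An unadjusted p below 0.05 was found for 0 of the 16, against 3844 of all 15138 genes in KO and 4470 in WT cells. Their median differences were -0.076 in KO and 0.041 in WT cells. Eef1a1, which delivers aminoacyl-tRNA to the ribosome, differed by -0.058 ± 0.101 in KO and 0.21 ± 0.10 in WT cells, and Eef2, which moves the ribosome along, by -0.22 ± 0.13 in KO and -0.076 ± 0.125 in WT cells. Fau, Rps3a1 and Rack1, which encode ribosomal proteins under other kinds of symbol, were not called either. Fau differed by -0.084 ± 0.112 in KO and 0.18 ± 0.11 in WT cells, Rps3a1 by -0.117 ± 0.110 in KO and 0.084 ± 0.110 in WT cells, and Rack1 by -0.109 ± 0.104 in KO and 0.080 ± 0.104 in WT cells.

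Genes with and without the run at the start had similar medians. The 13 ribosomal protein genes with it had median differences of -0.082 in KO and 0.056 in WT cells. The 48 without it had -0.097 in KO and 0.027 in WT cells.

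Regulators of these transcripts were measured as well. Of 22 genes of TOR signalling and of ribosomal protein translation, 3 rose in each genotype and none fell, where 5.85% of all genes rose and 2.27% fell in KO cells, and 6.42% rose and 3.84% fell in WT cells. Larp1, which binds the pyrimidine start of ribosomal protein messenger RNAs, had 5.69 and 6.08 in stimulated KO cells, against 4.74 and 4.62 in KO cells in medium, and 5.98 and 5.99 in stimulated WT cells, against 5.09 and 4.72 in WT cells in medium. It rose by 1.202 ± 0.19 in KO and 1.08 ± 0.19 in WT cells (limma, adjusted p = 0.0169 and 0.0228). Larp4, which binds poly(A) tails, rose by 0.81 ± 0.14 in KO and 0.62 ± 0.14 in WT cells, and the cap-binding factor gene Eif4e by 0.68 ± 0.14 in KO and 0.73 ± 0.14 in WT cells. Of 14 genes of the checkpoint in which free ribosomal proteins act on p53, 1 rose and 1 fell in each genotype, against the same shares of all genes. Cdkn1a, the cell cycle inhibitor p21, rose by 2.13 ± 0.34 in KO and 2.05 ± 0.34 in WT cells, and Sesn1, an inhibitor of mTOR signalling, fell by 1.251 ± 0.26 in KO and by 1.17 ± 0.26 in WT cells.

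**Figure D5:**
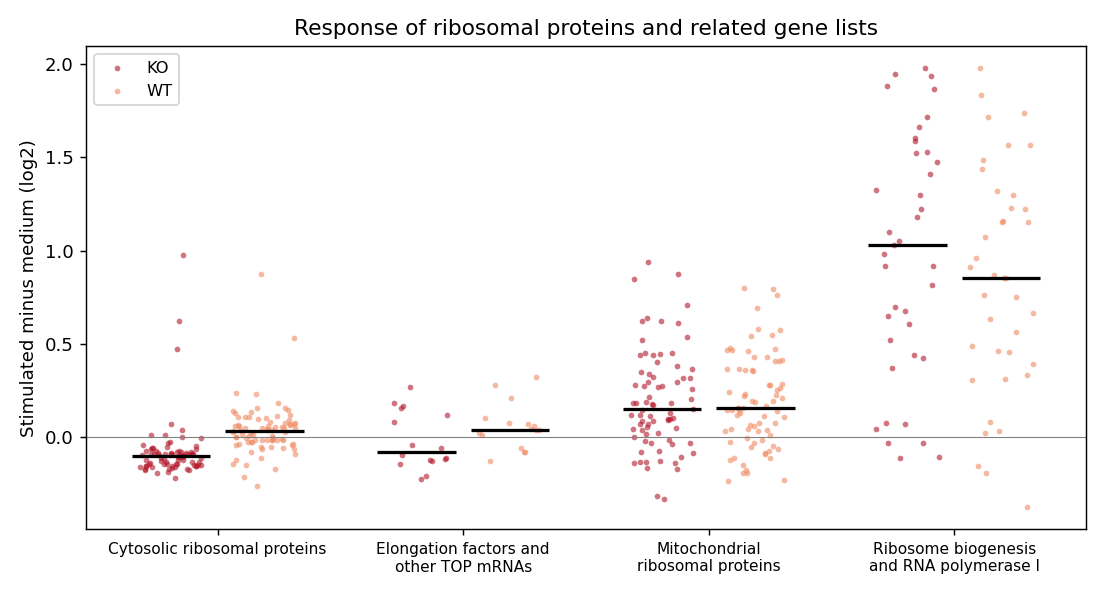
Each point is 1 gene, as its stimulated minus medium difference in log2 units, for 4 gene lists along the horizontal axis with KO cells at the left and WT cells at the right of each list; black bars are medians and Rpl3l is not drawn. The cytosolic ribosomal proteins gather near 0, while ribosome biogenesis genes centre on 1.03 in KO and 0.85 in WT cells.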

How the data were processed

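RNA was labelled with Cy3 and hybridised to Agilent arrays, 1 sample each. Per the file headers, Agilent Feature Extraction 10.7.1.1 produced the deposited intensity of each spot, linear and, for the processed signal, background-subtracted. The series' value table repeats the median intensity of each spot, with 0 differing values. All 8 arrays share 1 slide, on which stimulated and medium arrays occupy different rows and genotypes different columns, so groups cannot be told apart from slide position. No 2 arrays of a group held identical values, and no column came from another sample (0 columns).

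Log2 values were computed here from the deposited intensity as log2 of the processed signal minus the array's 75th percentile over non-control spots. Outlier spots were dropped and spots of a probe averaged. Of 55681 probes, 26056 were named by RefSeq accession (GRCm38.p6, names and RefSeq sequences only, since the headers name mm9), 29625 were not named here, and 37255 passed the filter, being well above background on each array of some group. The brightest probe stood for a gene. For Rpl9, Rpl12 and Rpl10a it was dropped as an outlier on WT medium replicate 1, so 7 arrays were fitted. The filter left 81 of 82 genes. The number of arrays limits the precision.

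A mean per group was fitted with limma 3.58.1 in R 4.3.3 (4 residual degrees of freedom, 2.11 prior), with Benjamini-Hochberg adjustment over all 15138 genes in each of 5 contrasts. The method was tested on simulated data. Members and lists were chosen with earlier results of these data known. The text names Lsp1, every called member, members fixed by role, all paralog pairs, the 3 members with the largest and smallest range over group means (Rpl3l, near background, unranked), and the 3 called genes of each list with the largest change. Eef1a1 and Eef2 were added for their roles. Some genes and probes are counted but not reported, or not drawn among the probes plotted by brightness, here. The labels give no pairing. Deviations of same-numbered arrays correlated at 0.742 between the KO groups, 0.161 between the WT groups, and -0.244 to -0.061 across genotypes, so the numbers were not taken as pairs over all groups. Alternatives covered normalization, background, filter, probe choice, arrays fitted, weights, blocks and each array left out.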

Additional observations from a re-analysis of the deposited data

How the results depend on the processing

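Rpl7l1 was the single call in each genotype, and the number of ribosomal protein genes called higher depended on the fit. The number of calls over all genes moved with the fit too. In WT cells 2 were called with array weights and with a replicate block within genotype (Rpl7l1 and Rps27l), and 2 with the mean of all probes or the dimmest probe of a gene. Over all 15138 genes, the weights gave 3463 calls in WT cells and the block 3521, against 1553 in the main fit. In KO cells 2 were called with a variance trend and with the block within genotype (Rpl7l1 and Rps27l). Rpl3l, which passed the filter only through KO cells in medium, was called lower under the block. Over all genes, the trend gave 1571 calls and the block 2776, against 1230 in the main fit. With the mean of all probes or the dimmest probe, 2 ribosomal protein genes were called in KO cells. When only the KO arrays were fitted, 0 were called in KO cells (Rpl7l1 0.98, limma, adjusted p = 0.118). That fit called 38 of all genes, against 1230 in the main fit. Leaving out single arrays gave 0 to 1 calls in each genotype. Rpl7l1 was lost in WT cells without any 1 of the 4 WT arrays and in KO cells without KO medium replicate 2. With the replicate number as a block over all arrays, 1 gene was called in KO and 1 in WT cells, as without it, and the median difference between the responses was -0.129. For KO minus WT after stimulation, the crossed pairing of the arrays, added after seeing the data, gave 0 calls among these genes, as did the same numbers. The dimmest probe was also added after seeing the data.

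The median over the genes moved with quantile normalization and with KO medium arrays. On stimulation in KO cells it was -0.011 with quantile normalization, -0.194 without both KO replicate 2 arrays, and -0.196 to -0.0088 without single arrays. For KO minus WT in medium it was 0.097 without both KO replicate 2 arrays and -0.102 to 0.097 without single arrays. For KO minus WT after stimulation it was -0.0037 with quantile normalization and -0.134 with arrays centred on the median of all genes. For the difference between the responses it was 0.011 with quantile normalization and -0.218 to -0.026 without single arrays. The cause was not tested. Lsp1 kept its direction in all alternatives. Its adjusted p was 0.0690 in medium (-3.79) and 0.0753 after stimulation (-3.35) when only the groups compared were fitted, and 0.170 (-3.71) and 0.0704 (-3.33) without both KO replicate 2 arrays. Without single arrays the difference after stimulation was -3.39 to -3.32, with adjusted p from 0.0116 to 0.0602. Normexp correction used the median signal, since the mean signal is not used here.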

Other observations

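In 14 of the 78 ribosomal protein genes measured on all 8 arrays (17.9%), chosen after their values were seen, stimulated arrays lay wholly below medium in KO cells and wholly above medium in WT cells, against 1.07% of all genes. The pattern was seen in the scaling to the 75th percentile. The median difference between the responses over the ribosomal protein genes was 0.011 with quantile normalization. It was -0.123 with arrays centred on the median of all genes. Other bright genes had medians of the same signs. Among the 119 other genes with a mean of 7 or more, the median response was -0.085 in KO and 0.040 in WT cells. The share of these bright genes with the pattern was not computed. The 14 genes were Rpl4, Rpl5, Rpl6, Rpl8, Rpl13, Rpl13a, Rpl17, Rpl23, Rpl23a, Rpl26, Rpl35a, Rps6, Rps14 and Rps24. The difference between the responses, KO minus WT, ran from -0.33 to -0.14 in these genes, and none passed the test (limma, unadjusted p from 0.0684 to 0.396, every adjusted p = 0.9999). The 4 X-linked genes, which include Rpl10 and Rps4x, had a median stimulated minus medium difference of -0.115 in KO cells and -0.013 in WT cells.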
